A study of Mus musculus with 6 samples.

Results

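Alveolar fluid clearance is the movement of salt and water out of the air spaces, and 8 of the genes that carry it out are described here in mouse type II alveolar epithelial cells. The genes were Scnn1a, Scnn1b and Scnn1g (the alpha, beta and gamma subunits of the epithelial sodium channel ENaC), Cftr (the cyclic AMP gated chloride channel), Atp1b1 (the beta 1 subunit of the sodium pump) and the water channels Aqp1, Aqp3 and Aqp4. They were picked by symbol, with earlier results of these data known, and each of the 8 had 1 probe set with a single gene symbol, among 19938 genes measured this way. Of the 8, only Scnn1b differed past the threshold between the arrays labelled knockout and the control arrays, and it was lower.

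Type II cells make surfactant, and together with type I cells they also keep the alveolar surface nearly dry. Sodium enters through ENaC on the apical side and is driven out on the basolateral side by the sodium pump, and water follows through aquaporins and between the cells. ENaC works as a complex of its subunits, and its activity is set by proteases that cleave it, by ubiquitin ligases that remove it from the membrane and by corticosteroid signalling. CFTR carries chloride in either direction, so it can take part in absorption as well as in secretion.

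Messenger RNA was measured on 6 Affymetrix arrays, 3 per group, each with RNA from the pooled type II cells of 3 mice aged 8 weeks. The mice of the knockout group carried SP-C-rtTA, (tetO)7CMV-Cre and a homozygous Gpr116flx allele. The control mice had SP-C-rtTA and (tetO)7CMV-Cre without the Gpr116flx allele. Cre, directed by the surfactant protein C promoter to the epithelium, is thus common to both groups, and the conditional allele without Cre was not among the samples. The labels describe the mice as littermates matched for sex and age. Cells were obtained with collagenase and differential plating, and were lysed within hours of isolation. The comparison asked how deletion of Gpr116, an adhesion receptor of these cells, changes their transcripts. In such pooled samples fewer cells of a type and less RNA per cell cannot be told apart.

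The labels were checked first. The probe set of Gpr116, listed as Adgrf5, read 11.89, 11.78 and 11.87 log2 units in the pools labelled knockout and 11.49, 11.53 and 11.51 in the control pools, so the targeted gene was not lower there (log2 difference 0.34 ± 0.05, SE; limma adjusted p = 0.0119). That call was lost without any 1 control pool (adjusted p of 0.0596 to 0.0648) and in the pools low in Y-linked genes described next (0.0643). The position of its probes against the deleted exons is not known here, so the probe set checks nothing, and every direction below rests on the labels. All 10 type II cell markers were bright, with a mean of 12.50 to 12.54 log2 units in the knockout group and 12.43 to 12.45 in the control group. Of the 10, 1 was called higher and 0 lower. The 1 was Lamp3 at 0.32 ± 0.07 (limma adjusted p = 0.0337). Lamp3 lost its call without knockout pool 3 or any 1 control pool, with the replicates blocked by number and in the pools low in Y-linked genes. Knockout pool 2 and control pool 1 were high in the Y-linked genes Kdm5d, Uty and Eif2s3y (means of 8.37 and 8.41 against 4.07 to 4.23), and the other 4 pools were low. Calls lost without those 2 pools are named beside the gene.

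Scnn1b and Scnn1g lie next to each other on mouse chromosome 7, with 0 protein-coding genes between them in the RefSeq gene table of GRCm38.p6, and they gave unlike values here. The 250 bases that precede the start of each gene are shown for that reason, 5′ to 3′ on the plus strand of GRCm38.p6 as RefSeq gives them, with each GC box (GGGCGG, or CCGCCC on the other strand, a binding motif of Sp1 family factors) in capitals. The windows are chr7:121864788-121865037 for Scnn1b and chr7:121734229-121734478 for Scnn1g.
Scnn1b: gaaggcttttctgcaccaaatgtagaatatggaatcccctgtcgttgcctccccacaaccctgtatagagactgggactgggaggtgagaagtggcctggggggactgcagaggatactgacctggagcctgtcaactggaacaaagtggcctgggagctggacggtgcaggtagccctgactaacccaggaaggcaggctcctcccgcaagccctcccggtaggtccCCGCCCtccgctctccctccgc
Scnn1g: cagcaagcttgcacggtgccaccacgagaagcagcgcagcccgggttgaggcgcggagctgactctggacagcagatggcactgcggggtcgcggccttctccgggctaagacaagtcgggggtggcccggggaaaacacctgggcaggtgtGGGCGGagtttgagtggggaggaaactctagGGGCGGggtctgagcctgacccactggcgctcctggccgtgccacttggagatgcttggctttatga

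The Scnn1b window held 1 GC box and the Scnn1g window 2, and GC made up 60.8% and 65.2% of their bases, against a median of 52.4% over 32851 mouse promoter windows of this length. A GC box was found in 32.7% of these windows. A promoter window was held for 6 of the 8 genes (Scnn1b, Scnn1g, Cftr, Atp1b1, Aqp1 and Aqp3), and each of the 6 held at least 1 GC box. The 32851 windows were all those held, without a limit to protein-coding genes or to 1 window per gene. The 6 genes gave 1 window each, so the sets are unlike and no enrichment is read from these shares. The TATA box TATAAA stood in the Aqp3 window and in 12.4% of all windows. In the same 6 windows, searched on both strands, there was no match to the E-box CACGTG (6.02% of all windows), the D-box TTATGTAA read by clock output factors (0.819%), the corticosteroid receptor half-site TGTTCT (16.1%) or the cyclic AMP response element TGACGTCA (1.55%). The GC box and the TATA box of the Aqp3 window had 0 bases in common, and a match is a description of the sequence only.

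Scnn1b, the beta subunit of ENaC, read 10.12, 9.96 and 10.08 log2 units in the pools labelled knockout and 10.57, 10.50 and 10.50 in the control pools. The groups did not overlap, and the highest knockout pool stayed well below the lowest control pool. The mean fell by 0.47 on the log2 scale (-0.47 ± 0.06, SE, n = 3 per group, 95% interval -0.61 to -0.33), a 1.39-fold lower level, with a limma adjusted p = 0.00670 over all genes. In order of p it was gene 315 of 19938. The difference lay between -0.50 and -0.42 whichever array was left out and was called each time (adjusted p of 0.00435 to 0.0410). In the 4 pools low in Y-linked genes it was -0.40 with an adjusted p = 0.0556, so it was not called with 2 pools per group.

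Scnn1a, the alpha subunit of ENaC, read 11, 10.91 and 11.14 log2 units in the pools labelled knockout and 11.08, 11.25 and 11.27 in the control pools. The highest knockout pool lay above the lowest control pool. The difference was -0.18 ± 0.08 with a 95% interval of -0.38 to 0.01, and it did not pass (limma adjusted p = 0.250). Scnn1g, the gamma subunit, read 10.05, 10.10 and 10.44 in the knockout group and 10.20, 10.11 and 10.13 in the control group, so that knockout pool 3 stood above the other 5 pools. Its difference was 0.05 ± 0.10, with a 95% interval of -0.20 to 0.30 (limma adjusted p = 0.847), and it was -0.07 without knockout pool 3.

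The subunits were also set against each other within each array, in 3 pairs chosen after their values were seen. Scnn1b minus Scnn1g was 0.07, -0.14 and -0.36 log2 units in the pools labelled knockout and 0.37, 0.39 and 0.37 in the control pools, without overlap. The group means differed by -0.52 (exact permutation test, two-sided, p = 0.10, and 0.15 after Benjamini-Hochberg adjustment over the 3 pairs), where 0.10 is the smallest p that 3 against 3 pools can give. Scnn1a minus Scnn1b was 0.88, 0.95 and 1.06 in the knockout group and 0.51, 0.75 and 0.77 in the control group, again without overlap (difference 0.29, exact p = 0.10, adjusted 0.15). Scnn1a minus Scnn1g overlapped between the groups (difference -0.23, exact p = 0.20, adjusted 0.20). None of the 3 unequal changes was called, and the exact test at this size could not have called one.

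The other protein-coding neighbours on chromosome 7 that were measured did not pass either. Usp31 and Hs3st2, on the side of Scnn1g, stood at 0.14 ± 0.10 and -0.003 ± 0.06, and Cog7 and Gga2, on the side of Scnn1b, at 0.07 ± 0.06 and 0.15 ± 0.07 (limma adjusted p of 0.246 to 0.985). Scnn1b was the only one of these 6 adjacent genes that was called.

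**Figure D1:**
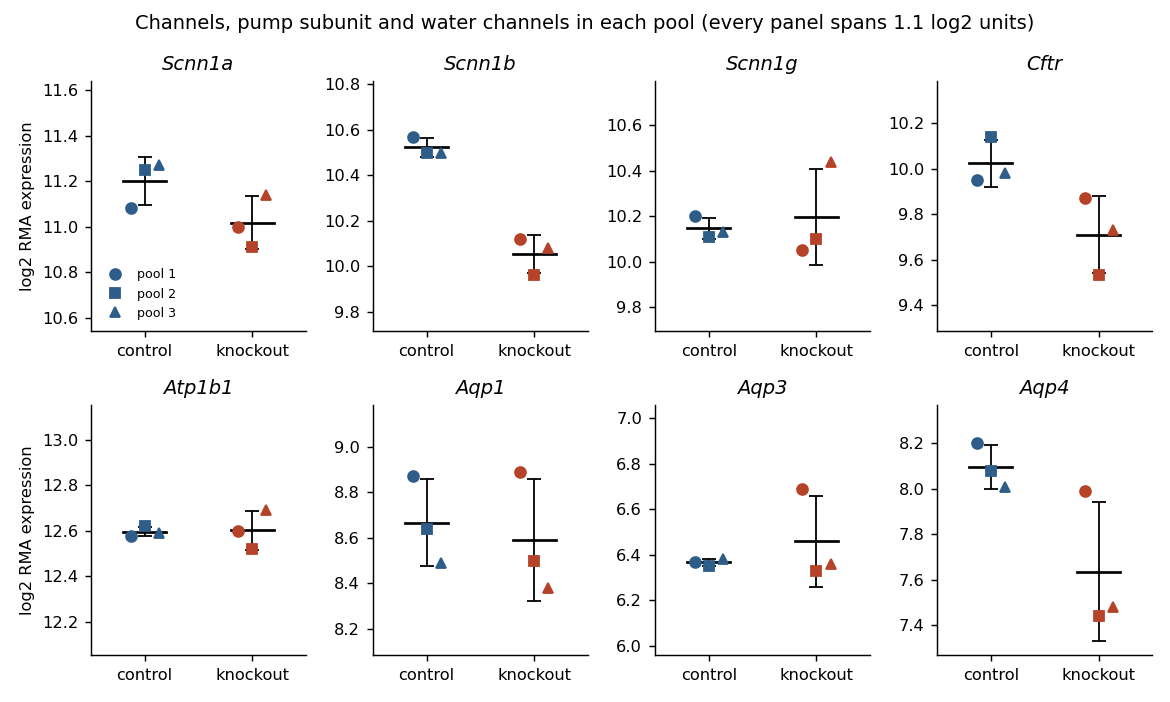
Log2 expression of the 8 genes in each pool (vertical axes, log2 units, each panel spanning the same range) for the control and knockout groups; points are pools, the symbol gives the pool number, and bars are the mean and SD of 3 pools. Scnn1b is at 9.96 to 10.12 in the knockout pools and 10.50 to 10.57 in the control pools, while Atp1b1 and Aqp1 overlap between the groups.

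Cftr read 9.87, 9.53 and 9.73 log2 units in the pools labelled knockout and 9.95, 10.14 and 9.98 in the control pools. The groups did not overlap, but knockout pool 1 lay only just below the control pools. The difference was -0.31 ± 0.10 with a 95% interval of -0.54 to -0.08, and it did not pass over all genes (limma adjusted p = 0.110). Without knockout pool 1 it was -0.39 and passed (adjusted p = 0.0417).

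Atp1b1, the beta subunit that brings the sodium pump to the membrane, read 12.60, 12.52 and 12.69 log2 units in the knockout group and 12.58, 12.62 and 12.59 in the control group. The control pools all lay within the range of the knockout pools. The difference was 0.01 ± 0.06 with a 95% interval of -0.13 to 0.15 (limma adjusted p = 0.968), which leaves room for changes of up to that size. The probe set was bright, on arrays with maxima of 13.32 to 13.43.

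Among the water channels, Aqp4, which airway and alveolar epithelium carry on the basolateral side, had the largest difference. Its values were 7.99, 7.44 and 7.48 log2 units in the knockout group and 8.20, 8.08 and 8.01 in the control group. Knockout pool 1 lay just below control pool 3, and pools 2 and 3 of the knockout group lay far below. The difference was -0.46 ± 0.15 with a 95% interval of -0.81 to -0.11 and did not pass (limma adjusted p = 0.119). With the replicates blocked by number it passed at an adjusted p = 0.0468, with array weights at 0.0376 and without knockout pool 1 at 0.00277, where the difference was -0.64. Without knockout pool 2 it was -0.36 (adjusted p = 0.204).

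Aqp1, the water channel best known from endothelium and red cells, read 8.89, 8.50 and 8.38 log2 units in the knockout group and 8.87, 8.64 and 8.49 in the control group. Pool 1 was the highest of both groups and pool 3 the lowest. The difference was -0.08 ± 0.15 (95% interval -0.43 to 0.28, limma adjusted p = 0.835). The endothelial marker list had means of 7.12 to 7.14 log2 units in the knockout group and 6.93 to 7.11 in the control group, with 2 of 8 markers higher and 1 lower (2 and 0 without control pool 1, and 1 and 0 without control pool 2, without control pool 3 or in the pools low in Y-linked genes). Alas2, the 1 red cell marker measured, was 11.63, 10.30 and 10.32 in the knockout group and 10.70, 10.61 and 9.69 in the control group, and was also highest in pool 1 of each group. The part of these cells in the Aqp1 values was not tested.

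Aqp3, an aquaglyceroporin found in airway basal cells, was dim at 6.69, 6.33 and 6.36 log2 units in the knockout group and 6.37, 6.35 and 6.38 in the control group. Knockout pool 1 stood above the other 5 pools, which spanned 6.33 to 6.38. The difference was 0.09 ± 0.10 (95% interval -0.14 to 0.33, limma adjusted p = 0.662), and it was -0.02 without knockout pool 1. The mean of the 4 basal cell markers was 6.82 in that pool against 6.34 to 6.63 in the other 5. Of these markers Krt5 was highest in knockout pool 1, at 7.22 against 6.17 to 6.71, whereas Krt15 was lower in all 3 knockout pools (6.44 to 6.65 against 6.79 to 6.96) and was the 1 called, at -0.36 ± 0.08 (limma adjusted p = 0.0331). Krt15 kept this call when an array was left out only without knockout pool 1 (up to 0.134 otherwise), and not in the pools low in Y-linked genes (0.169). Whether basal cells contributed to the Aqp3 value was not tested.

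As a group the 8 genes gave 0 higher and 1 lower at a limma adjusted p under 0.05, where 3.36% and 5.13% of all 19938 genes were higher and lower. In either direction 1 of 8 was called, against 8.49% of all genes. The number lower was 3 without knockout pool 1 and 2 with the replicates blocked by number, and 0 in the pools low in Y-linked genes. Their median difference was -0.13 log2 units, against 0.003 over all genes, and 5 of the 8 differences were negative. At an unadjusted p under 0.05 there were 3 (Scnn1b, Cftr and Aqp4, all lower), where 22.1% of all genes passed and 10.6% passed lower. Groups did not overlap for the same 3 genes, or 37.5%, against 27.6% of all genes in either direction and 12.8% lower. With 8 genes these shares differ from those of all genes by 1 or 2 genes, and they are not read as a result about the list.

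The pools labelled knockout varied more than the control pools. The SD over 3 pools was larger in the knockout group for all 8 genes, for example 0.20 against 0.02 log2 units for Aqp3 and 0.21 against 0.05 for Scnn1g. It was larger in the knockout group for 68.0% of all genes. Knockout pool 1 was the highest of its group for Scnn1b, Cftr and the 3 water channels, and knockout pool 3 for Scnn1a, Scnn1g and Atp1b1. Knockout pool 2 was the lowest for 6 of the 8, all but Scnn1g and Aqp1. Of all 19938 genes, 8776 were highest of this group in knockout pool 1 and 6125 in knockout pool 3. Knockout pool 2 was the lowest for 8620 of them. The counts for the 8 genes are not read as a trait of the list.

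**Figure D2:**
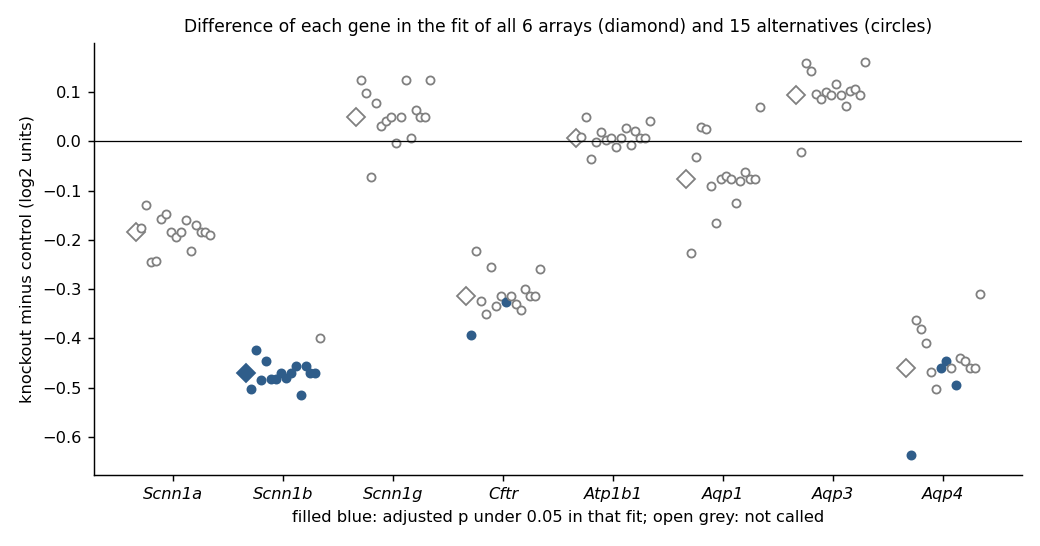
Difference between knockout and control means (vertical axis, log2 units) for each of the 8 genes, in the fit of all 6 arrays (diamonds) and under 15 alternative settings (circles, 14 for Aqp3), with filled symbols where the limma adjusted p was under 0.05. Scnn1b lies between -0.52 and -0.40 and is filled in all but 1 alternative; Aqp4 is filled in 4 and Cftr in 2.

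Ciliated and club cell markers moved in the same direction as Scnn1b, Cftr and Aqp4. Expression in airway epithelium is not particular to these 3 genes, since Aqp3 is found in airway basal cells. Basal and ionocyte list means differed by -0.06 and 0.26, and the club marker Scgb3a1 stood at 0.08. Of the 8 genes, Scnn1a and Aqp1 stood at -0.18 and -0.08, and Scnn1g, Atp1b1 and Aqp3 at 0.05, 0.01 and 0.09. Among the knockout pools, Scnn1b, Cftr and Aqp4 and the mean of the club list were lowest in pool 2, and the ciliated list in pool 3. Of the 6 club markers, however, only 1, Scgb3a2, was itself lowest in pool 2. Scgb3a1 read 10.13, 10.15 and 12.02 in knockout pools 1, 2 and 3, and Cyp2f2, Cbr2 and Aldh1a1 were lowest in pool 3. All 10 ciliated cell markers fell (9 without knockout pool 3, 7, 6 and 3 without control pools 1, 2 and 3, and 0 by limma in the pools low in Y-linked genes, where all 10 had an unadjusted p under 0.05), with a median difference of -1.09 log2 units and list means of 7.83 to 8.37 in the knockout group and 8.98 to 9.10 in the control group. Of 6 club cell markers 3 fell, with list means of 11.56 to 11.86 and 12.00 to 12.08. The most lowered of the club markers was Scgb3a2, a secretoglobin, at -0.96 ± 0.09 (limma adjusted p = 0.00425). It was the 1 club marker called without any 1 control pool or in the pools low in Y-linked genes. The club marker Cyp2f2 also lost its call without knockout pool 2 or 3, with the replicates blocked by number and with median centring (adjusted p of 0.0657 to 0.192 over all these fits). The part of airway cells in the lower values of Scnn1b, Cftr and Aqp4 was not tested. Of 3 ionocyte markers, which mark a rare airway cell rich in Cftr, Foxi1 and Ascl3 were dim at 5.24 to 5.63 log2 units in every pool, and Atp6v1g3 was higher at 0.85 ± 0.16 (limma adjusted p = 0.0221, but up to 0.0774 without knockout pool 3, control pool 2 or control pool 3, and 0.0556 in the pools low in Y-linked genes).

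**Figure D3:**
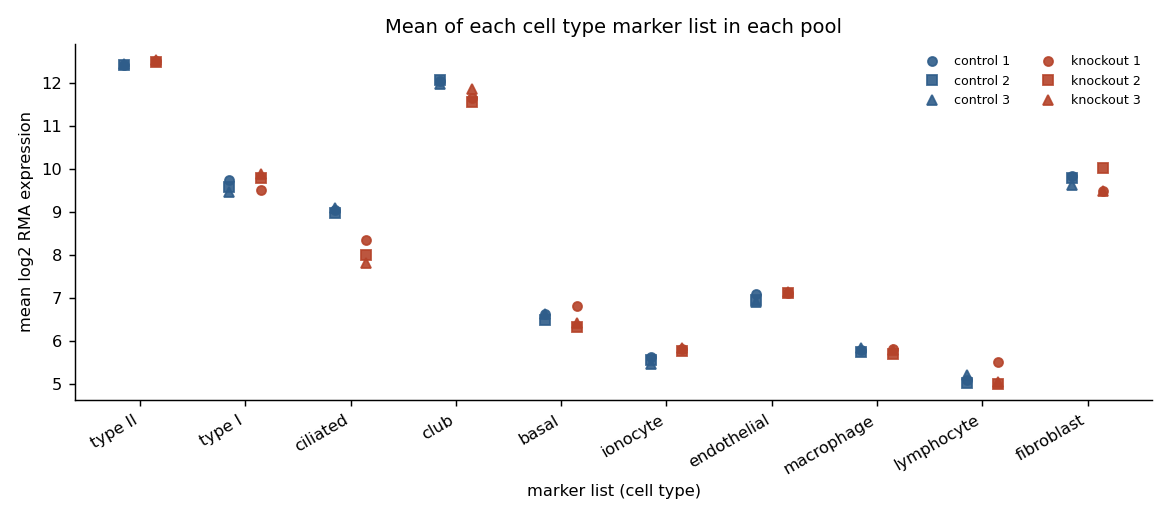
Mean log2 expression of each cell type marker list (horizontal axis, 10 lists) in each of the 6 pools (vertical axis, log2 units), control pools in blue and knockout pools in red. The ciliated and club lists are lower in all 3 knockout pools, and the type II list is bright in every pool.

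Type I cell markers, which could mark carry-over of the other alveolar cell type, went both ways, with 1 of 8 higher, 0 lower and list means of 9.52 to 9.89 in the knockout group and 9.48 to 9.76 in the control group. The 1 was Ager at 0.22 ± 0.05 (limma adjusted p = 0.0363), which on leaving out an array was called only without knockout pool 2 (up to 0.153 otherwise), and neither with the replicates blocked by number (0.0824) nor in the pools low in Y-linked genes (0.119). Without knockout pool 1, 3 type I markers were higher. Their member Aqp5, the apical water channel of type I cells, read 9.88, 9.98 and 9.61 in the knockout group and 10.35, 10.10 and 10.17 in the control group. These groups did not overlap, and the difference of -0.38 ± 0.11 did not pass (limma adjusted p = 0.0875). Aqp5 passed in 2 of 15 alternatives, 1 of them with array weights (limma adjusted p = 0.0491). Fibroblast, macrophage and lymphocyte lists had 0 of 17 measured markers called by limma in total, and also 0 at an unadjusted p under 0.05.

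Other genes that serve fluid clearance were taken as 5 lists with 60 genes, of which 52 were measured and 8 were not analysed here. Of the 52, 2 rose, 4 fell and 46 did not pass, or 11.5% called against 8.49% of all genes, and their median difference was -0.02 log2 units. Groups did not overlap for 36.5% of them, against 27.6% of all genes. Without knockout pool 1, 8 fell, and without knockout pool 3, 2 did. Without control pool 1 or 2, 1 rose and 1 fell, and without control pool 3 limma called 0 in either direction, where 13 had an unadjusted p under 0.05. The 6 called genes lay in 2 of the 5 lists, the regulators of ENaC and of the pump, and other transporters of lung fluid.

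Of 15 measured regulators 1 rose and 2 fell, or 20% called against 8.49% of all genes. Groups did not overlap for 60% of them, against 27.6% of all genes. These shares rest on few genes and are not read as a result about the list. Nr3c2, the mineralocorticoid receptor through which aldosterone raises ENaC, read 6.58, 7.00 and 6.54 log2 units in the pools labelled knockout and 7.47, 7.45 and 7.55 in the control pools. It fell by 0.78 ± 0.12 (limma adjusted p = 0.0119), and was not called without any 1 control array (adjusted p of 0.0554 to 0.0697). Hsd11b2, the enzyme that inactivates corticosterone and so shields this receptor, read 7.14, 7.40 and 7.73 against 6.78, 6.76 and 6.82. It rose by 0.64 ± 0.14 (limma adjusted p = 0.0350) and lost its call without knockout pool 2 (0.0579), control pool 1 (0.120), control pool 2 (0.133) or control pool 3 (0.122), and in the pools low in Y-linked genes (0.168). All 3 knockout pools lay below the control pools for Nr3c2 and above them for Hsd11b2.

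Usp2, a deubiquitinase that can keep ENaC at the membrane and whose transcript is known to cycle with the circadian clock, read 8.20, 7.84 and 7.79 in the pools labelled knockout and 8.71, 8.70 and 8.70 in the control pools. It fell by 0.76 ± 0.11 (limma adjusted p = 0.00905), but not past the threshold without control pool 3 (0.0538) or in the pools low in Y-linked genes (0.0867). The ubiquitin ligase Nedd4l, which removes ENaC from the membrane, and the kinase Sgk1, which restrains that ligase, were not called at 0.19 ± 0.12 and 0.29 ± 0.30. Sgk1 read 7.00, 7.77 and 8.30 in the knockout group and 7.21 to 7.63 in the control group, so its knockout pools lay on both sides of the control pools. The closest regulators without a call were the kinase Stk39 at 0.36 ± 0.10 (adjusted p = 0.0917, and 0.0210 without knockout pool 2) and the membrane linker Ezr at -0.19 ± 0.06 (0.125). Stk39 passed in 3 of 15 alternatives and Ezr in 1 of 15.

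Of 10 measured transporters 1 rose and 2 fell, or 30% called against 8.49% of all genes. Groups did not overlap for 30% of them, against 27.6% of all genes. With 10 genes these shares are not read as a result about the list. Slc12a2, the basolateral sodium, potassium and chloride cotransporter that loads cells with chloride for secretion, read 10.69, 10.55 and 10.67 in the knockout group and 10.93, 11.04 and 10.95 in the control group. It fell by 0.34 ± 0.06 (limma adjusted p = 0.0200), and lost its call with the replicates blocked by number (0.0516), without knockout pool 3 (0.0535), without control pool 1, 2 or 3 (0.0661, 0.0953 and 0.0821) or in the pools low in Y-linked genes (0.0880). Slc4a4, a sodium bicarbonate cotransporter, fell by 0.28 ± 0.06 (limma adjusted p = 0.0416). Its call was the least stable of the 6, with an adjusted p of 0.0328 to 0.137 on leaving out an array and called only without knockout pool 1, and it was 0.0621 with median centring and 0.171 in the pools low in Y-linked genes.

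Kcnq1, a potassium channel that helps to hold the membrane potential which drives sodium uptake, read 8.93, 8.79 and 8.85 in the pools labelled knockout and 8.48, 8.30 and 8.36 in the control pools. The groups did not overlap. It rose by 0.48 ± 0.07 (limma adjusted p = 0.00907), and without control pool 3 it stood at an adjusted p of 0.0542. The nearest transporters without a call were Kcnn4 at 0.26 ± 0.12 and Cnga1 at 0.10 ± 0.06 (adjusted p = 0.277 and 0.437).

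None of the 10 other sodium pump subunits and FXYD partners measured, the 9 other water channels or the 8 ENaC proteases and inhibitors was called by limma. At an unadjusted p under 0.05 there were 2 genes in each list, near the 22.1% of all genes. The pump subunit Atp1b3 stood at 0.19 ± 0.05 and the pump modulator Fxyd3 at -0.31 ± 0.12 (adjusted p = 0.0834 and 0.192). Atp1b3 passed in 4 of 15 alternatives, among them on the mean of its 2 probe sets (0.0487). Fxyd3 passed in 2 of 15, 1 of them without knockout pool 1 (0.0153). Beside Aqp5, Aqp2 stood at -0.18 ± 0.06 (adjusted p = 0.122) and passed in 1 of 14 alternatives. Aqp9, a glycerol-conducting water channel, stood at 0.39 ± 0.17 (0.232). It passed in 2 of 14 alternatives, 1 of them with the replicates blocked by number (0.0499). Among the proteases that can activate ENaC, Tmprss2 stood at -0.38 ± 0.10 and Prss8 at -0.18 ± 0.07 (adjusted p = 0.0644 and 0.195). Tmprss2 passed in 6 of 15 alternatives, among them with the replicates blocked by number (0.0205) and without knockout pool 1 (0.0164). Prss8 passed in 1 of 15.

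**Figure D4:**
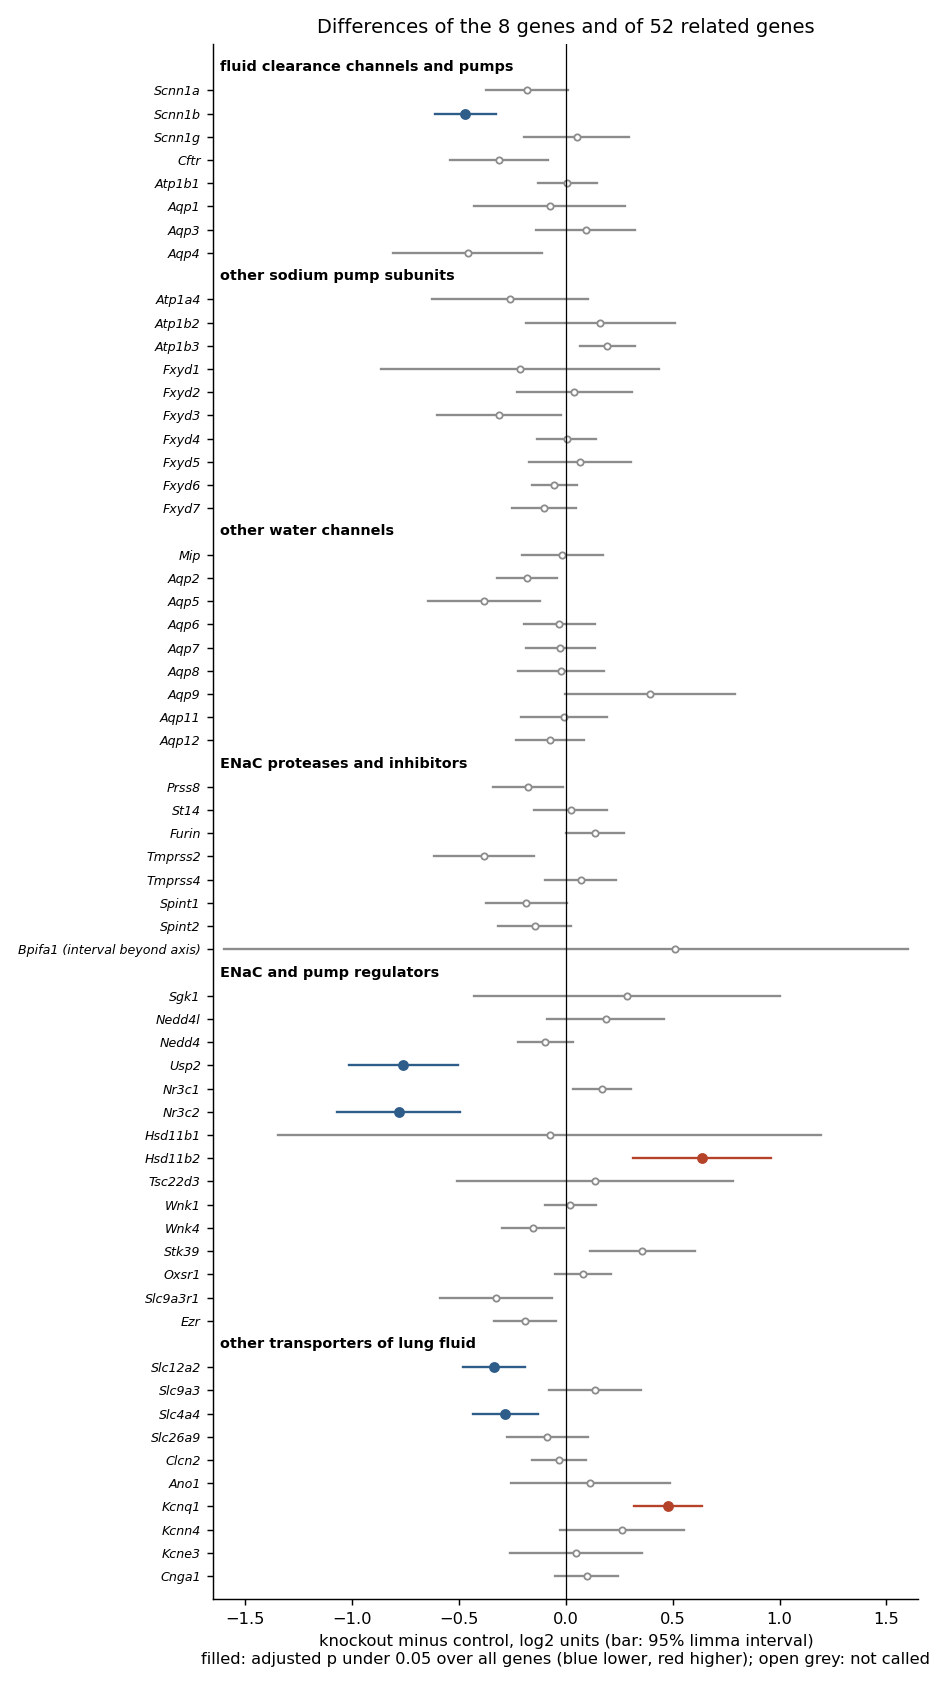
Difference between knockout and control means with its 95% limma interval (horizontal axis, log2 units) for the 8 genes and the 52 related genes, grouped by role; filled symbols mark an adjusted p under 0.05 over all genes. Scnn1b, Usp2, Nr3c2, Slc12a2 and Slc4a4 lie below 0 and Hsd11b2 and Kcnq1 above it, and the interval of Bpifa1 runs past the axis.

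Outside the 8 members, and leaving out symbols of predicted genes and clones, Mical2, Katnal2 and Tef were most like Scnn1b over the 6 arrays. Each had a Pearson r of 0.999. Their own differences were -0.26, -0.63 and -0.99 log2 units. The points share the group difference and the normalisation, and 472 of the genes kept this way had an r above 0.95 with Scnn1b.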

How the data were processed

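The submitters' processing notes name RMA and Affymetrix Expression Console 1.1 for the log2 values deposited by the authors. RMA makes the distributions of the arrays alike, so a shift shared by most genes is removed, and the levels of different probe sets are not compared. Differences between ENaC subunits within an array serve only to compare the groups. No genome build is given for the arrays in the sources used here. Groups came from the array titles. Of 35556 probe sets 21789 had 1 gene symbol in the platform annotation, and the brightest probe set of each gene gave 19938 genes.

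The groups were compared by lmFit and eBayes of limma 3.58.1 (R 4.3.3, two-sided, no filter), with Benjamini-Hochberg adjustment over all 19938 genes and a threshold of 0.05. The number of arrays limits the precision. The p-values set each difference against the spread between pools of 3 mice, moderated over all genes, and not against the spread between single mice. The fit was unpaired. The replicate numbers in the titles may pair the arrays, and a fit blocked by them is an alternative given beside each call it changes, since same-number arrays deviated together from their group means over all genes (r of 0.192, 0.103 and 0.111, above the limit of 0.1). The pairing rests on these values alone. Pools 1 and 2 were unlike their same-number partners in Y-linked genes (knockout 4.19 and 8.37 against control 8.41 and 4.07), which does not favour such a pairing. On simulated data with 19938 genes, 61 of 100 genes changed by 0.5 and 90 of 100 changed by 1 on log2 were recovered, with 7 false calls. The simulation drew each gene independently, with the same SD in both groups, and changed only these genes. In the data the SD was larger in the knockout group for 68.0% of genes, and 1692 genes were called. The simulated rates therefore need not hold for this comparison.

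Members and lists were chosen with earlier results of these data known. Named beside the members were each called list gene and, in each list, the 2 genes with the smallest p that were not called. Also named were the 3 genes most correlated with a called member, leaving out the members and symbols of predicted genes and clones. Others were named after their values were seen. Tried as alternatives were each array left out, the replicate block, the first title number as a random block, an intensity trend, array weights, quantile normalization, median centring, the mean of probe sets, genes above the median level, and the 4 pools low in Y-linked genes.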

Additional observations from a re-analysis of the deposited data

How the results depend on the processing

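Of the 8 genes, 0 were higher under every alternative tried. The 1 lower became 1 to 3 when an array was left out (3 without knockout pool 1, adding Cftr and Aqp4), 2 with the replicate block or with array weights (adding Aqp4), 3 with the first title number as a random block and 0 in the 4 pools low in Y-linked genes, where Scnn1b stood at -0.40. Leaving out an array gave 0 to 2 higher and 0 to 8 lower pathway genes. The random block gave 7 higher and 10 lower, array weights 7 lower, and the pools low in Y-linked genes 1 and 1. Over all genes the ranges on leaving out an array were 144 to 835 higher and 301 to 1265 lower. The random block gave 1881 and 1804, and the pools low in Y-linked genes 114 and 84. The random block had a consensus correlation of -0.51, so arrays that share a first number were less alike than others. Among the 8 genes, the 52 pathway genes and the markers given, the replicate block changed the calls named beside their values and no others.

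Signs of uncalled members turned for Scnn1g at -0.0037 (random block) and -0.0717 to 0.123 over the arrays left out, for Atp1b1 at -0.0126 (random block), -0.0078 (quantile normalization) and -0.0367 to 0.0483, for Aqp1 at 0.07 (pools low in Y-linked genes) and -0.227 to 0.0283, and for Aqp3 at -0.0217 to 0.158. Aqp3, Nr3c2 and Hsd11b2 lay below the median level and were not tested among the genes above it. The causes of these changes were not tested.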
